A study of Mus musculus with 17 samples.

Results

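Plasma cell-free RNA (cfRNA) was compared between mice that spent a flight on the International Space Station in microgravity (MG) and mice that flew with them on a rotating platform giving artificial 1-G gravity (AG). The MG and AG libraries were chosen by their labelled treatment, 6 of each, and make up 12 of the 17 libraries of the series. The other 5 are ground controls (GC). They are used here for the choice of the genes tested, the scaling, the estimate of the spread and a few values set alongside. All 12 flight mice were wild type C57BL/6J, 13 weeks old by the labels, and each library came from the plasma of 1 mouse. The RNA was degraded, so a small-RNA library kit was used on plasma cleared of debris. Since both groups flew, the comparison asks what gravity on board, apart from the rest of spaceflight, does to plasma RNA.

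Plasma cfRNA is a mixture of fragments that blood cells and tissues release. Reticulocytes, the youngest red cells, still carry mRNAs for globin, heme synthesis and the membrane skeleton and lose them as they mature, platelets carry mRNAs inherited from megakaryocytes, and mitochondria bring transcripts of their own small genome. MicroRNAs, short RNAs that pair with mRNAs through a seed at bases 2 to 8, travel in plasma inside vesicles or bound to proteins. In such bulk samples fewer cells of a type and less RNA per cell cannot be told apart.

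The deposited counts summed to between 115515 and 277682 per AG library and between 113746 and 223189 per MG library, and 4 genes took most of them. Tmem38b, which encodes a potassium channel of the endoplasmic reticulum, took 42.4% to 63.7% of the counts in MG and 56.1% to 74.4% in AG. Rn18s-rs5, a sequence related to 18S ribosomal RNA, took 9.95% to 18.9% in MG and 6.45% to 19.6% in AG. Polr2m, which encodes a subunit bound to RNA polymerase II, took 2.09% to 9.29% in MG and 5.54% to 13.4% in AG, and Lars2, the mitochondrial leucyl-tRNA synthetase, took 1.81% to 5.22% in MG and 1.83% to 4.74% in AG. Each of the 4 genes overlapped between the groups. The counts are whole reads per gene, and where in these genes the reads lie was not tested. Whether they come from the mRNAs of Tmem38b, Polr2m and Lars2 is therefore not known.

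Together, however, the 4 genes separated the groups. They held 75.9%, 74.0%, 83.5%, 77.1%, 70.6% and 80.4% of the counts in MG replicates 1 to 6 and 86.9%, 88.5%, 90.8%, 91.7%, 91.2% and 89.5% in AG replicates 1 to 6. The mean was 76.9% ± 4.6 (SD, n = 6) in MG and 89.7% ± 1.85 (SD, n = 6) in AG, and every MG library lay below every AG library. In the ground controls the share was 76.9% to 83.1%, a range that overlaps MG and not AG. All other genes were left with 19093 to 44415 counted reads per MG library and 10182 to 28846 per AG library. Values of most genes thus rest on few reads, with the fewest in AG. These totals leave out genes that the count column lists at 0. Where their length was known, their length-scaled values, described below, stood for many more reads. These were 73882 to 205711 per MG library and 59120 to 178430 per AG library.

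**Figure D1:**
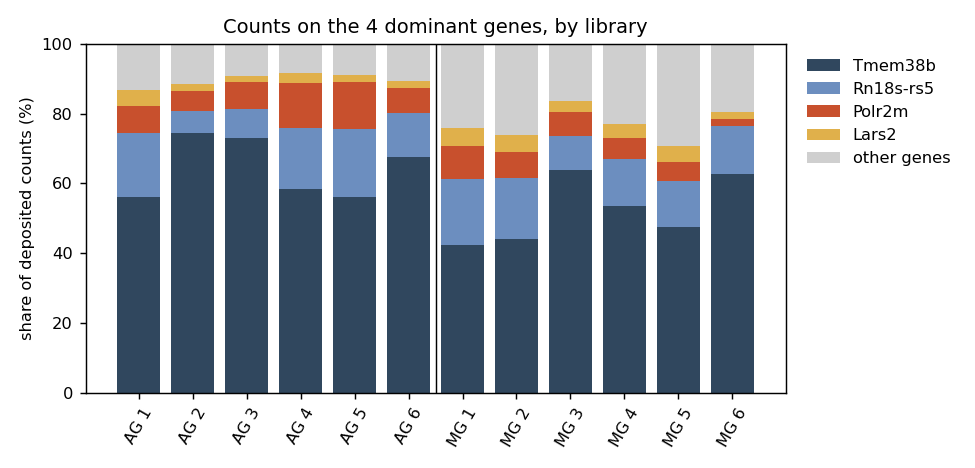
Share of the deposited counts (%, vertical axis) on Tmem38b, Rn18s-rs5, Polr2m, Lars2 and all other genes in each of the 6 AG and 6 MG libraries. The part on other genes is 8.29% to 13.1% in the AG libraries and 16.5% to 29.4% in the MG libraries.

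Because of this difference, the direction seen for an average gene depended on the library total. The counts were scaled by the trimmed mean of M-values (TMM), which sets the bulk of the genes level between libraries, and tested with edgeR's quasi-likelihood test. Of 272 genes with enough reads, 0 passed an adjusted p of 0.05, which is 0% of them, while 36 had an unadjusted p under 0.05, and all 36 also changed by more than 1.5-fold. Of these, 13 were higher in MG (4.78% of the genes tested) and 23 were lower (8.46%). With limma on log2(RPKM + 1) 16 were higher and 8 lower, so that the balance turned, and leaving out 1 library gave 5 (without AG replicate 4) to 21 (without GC replicate 4) higher. With the 4 genes left out of the library total and scaled by TMM again, 268 genes were tested, 0 passed the adjusted threshold, 10 were higher (3.73%) and 21 were lower (7.84%). With plain library totals that hold the 4 genes, 120 genes were higher in MG, 0 were lower and 48 passed the adjusted threshold, and the median log2 fold change moved from 0.17 to 1.21. With plain totals without the 4 genes, 2 were higher, 25 were lower, 0 passed and the median was -0.01. All values below are relative to the TMM scale unless another is named.

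Other tools set the limit of the calls at different places. DESeq2 called 9 genes on the same counts, of which 8 were lower in MG (2.94% of the genes tested), namely Polr2m, Rnf10, Bpgm, Ppp1cb, Mkrn1, Grn, Ube2o and Pabpc1, and 1, mt-Nd1, was higher. The edgeR exact test called Polr2m, Rnf10 and Bpgm. The MG and AG libraries did not overlap for 5 genes, all lower in MG (1.84% of the genes tested): Polr2m, Rnf10, Bpgm, Ube2o and 1700020I14Rik, a noncoding RNA gene outside the naming rule. For 0 genes did every MG library lie above every AG library.

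Polr2m (chromosome 9, 71478437 to 71485935, GRCm38) had the smallest p. Its normalised counts (CPM, counts scaled to a common library size) were 34523, 47884 and 59443 (lowest, median, highest) in MG and 62502, 137507 and 241197 in AG. The log2 fold change was -1.67 ± 0.38 (SE, edgeR, adjusted p = 0.058), and no MG library reached an AG library. With plain totals it was at -0.55, and its share of the counts overlapped between the groups, as given above. These values describe reads counted on Polr2m, and whether the reads come from its mRNA was not tested. Tmem38b had a log2 fold change of -1.07 ± 0.46, Rn18s-rs5 of -0.87 ± 0.41 and Lars2 of -0.45 ± 0.31, and the first and the second of these had an unadjusted p under 0.05. With plain totals, Rn18s-rs5 was at 0.07 and Lars2 at 0.57.

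Of the 23 genes lower in MG, 9 belonged to the red cell lists. Across the 6 red cell lists, which hold 101 genes of the table and 19 genes that could be tested, 9 were lower in MG at an unadjusted p under 0.05, against 8.46% of all genes tested, and 1, Fth1, was higher. The median log2 fold change of the 19 was -1.08, against 0.17 over all genes tested. Without the 4 dominant genes, 9 were lower, 0 were higher, and the median was -1.15 against 0.08. These 19 are the members with enough reads. Of 71 members with at least 5 reads, 9 were lower and 1 was higher, with a median of -0.41 against 0.34 over 6270 genes with as many reads, of which 3.21% were lower, 9.87% were higher and 0.0957% passed the adjusted threshold. By list, the medians over members with at least 5 reads were -0.65 for globins, -0.95 for heme and iron, -0.41 for membrane and skeleton, -0.25 for ubiquitin and organelle clearance, 0.24 for metabolism, which thus changed sign against its tested members, and -0.83 for the 6 erythroid regulators, of which 1 was higher. With plain totals that hold the 4 genes, 0 of the 19 were lower and 2 were higher, and with limma on log2(RPKM + 1) 3 were lower, 0 were higher and the median was -0.33 against 0.26. As a share of all counts, the red cell lists made up 0.285% to 2.38% in MG and 0.733% to 2.22% in AG, with the higher mean in MG, 1.57% against 1.25%.

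Bpgm, which encodes the enzyme that makes 2,3-bisphosphoglycerate to tune the oxygen affinity of hemoglobin, led the red cell metabolism list. It had 51.9, 103 and 243 CPM (lowest, median, highest) in MG and 293, 356 and 479 CPM in AG. The highest MG library, replicate 3, stayed below the lowest AG library, and the log2 fold change was -1.68 ± 0.43 (SE, edgeR, adjusted p = 0.058), or -1.73 without the 4 genes and -0.72 with plain totals that hold them. The GC libraries had 44.5 to 161 CPM, which overlaps MG and not AG. Gpx1, a glutathione peroxidase that clears peroxide, was the only other tested member, at -1.24 ± 0.62, with an unadjusted p above 0.05.

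The reticulocyte list of ubiquitin and organelle clearance had 5 tested members, of which 3 were lower in MG, against 8.46% of all genes tested. Of its 18 members with at least 5 reads 1 was lower, against 3.21% of all such genes. Rnf10, a ubiquitin ligase, had 28.7, 40.3 and 68.4 CPM in MG and 92.3, 120 and 157 CPM in AG, with a log2 fold change of -1.53 ± 0.38 (SE, adjusted p = 0.058). Ube2o, the enzyme that tags ribosomes and other proteins for removal as reticulocytes mature, had 20.5, 60.7 and 76.9 CPM in MG and 81.3, 142 and 281 CPM in AG, at -1.43 ± 0.40 (adjusted p = 0.090). Neither gene overlapped between the groups, and with plain totals that hold the 4 genes Rnf10 was at -0.59, Ube2o at -0.40 and Mkrn1, described next, at -0.15. Mkrn1, a further ubiquitin ligase, had 86.1, 131 and 211 CPM in MG and 185, 320 and 431 CPM in AG, at -1.22 ± 0.37 (adjusted p = 0.106), and only its highest MG library crossed its lowest AG library. Ubb, a ubiquitin gene, was at -0.47 ± 0.49 and Bnip3l, a receptor for the removal of mitochondria, at -0.51 ± 0.45, both with an unadjusted p above 0.05. As a share of the reads outside the 4 genes, all members of this list together made up 0.0984% to 0.444% in MG and 0.492% to 0.750% in AG, again without overlap. As a share of all counts the groups overlapped, at 0.0193% to 0.107% in MG and 0.0517% to 0.0952% in AG, and the mean was higher in MG, 0.0756% against 0.0638%.

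Among the genes of heme synthesis and iron, 5 were tested, 2 were lower, 1 was higher and 2 had an unadjusted p above 0.05, against 8.46% lower and 4.78% higher of all genes tested. Alas2, the erythroid enzyme of the first step of heme synthesis, had 61.5, 147 and 349 CPM in MG and 219, 343 and 892 CPM in AG, with a log2 fold change of -1.32 ± 0.48 (SE, adjusted p = 0.217). Slc25a37, mitoferrin, which carries iron into mitochondria, had 12.3, 46.5 and 98.8 CPM in MG and 63.2, 186 and 227 CPM in AG, at -1.54 ± 0.50 (adjusted p = 0.149). In both the groups overlapped, and with plain totals that hold the 4 genes Alas2 was at -0.38 and Slc25a37 at -0.66. Fech, the enzyme that inserts iron into the ring, was at -0.996 ± 0.672. Fth1, the ferritin heavy chain, which many cell types express, had 746, 1120 and 1221 CPM in MG and 250, 700 and 885 CPM in AG and was higher, at 0.78 ± 0.35 (adjusted p = 0.333). Ftl1, the ferritin light chain, was at 0.00 ± 0.35.

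Of the membrane and skeleton genes, 3 were tested and 2 were lower, against 8.46% of all genes tested, and of 13 with at least 5 reads 2 were lower, against 3.21%. Epb41, protein 4.1, which ties spectrin to the membrane, had 62.5, 179 and 406 CPM in MG and 244, 377 and 593 CPM in AG, with a log2 fold change of -1.08 ± 0.43 (SE, adjusted p = 0.244). Slc4a1, the band 3 anion exchanger, had 0, 27.8 and 76.0 CPM in MG, where replicate 5 had 0 reads, and 63.2, 95.1 and 131 CPM in AG, at -1.50 ± 0.58 (adjusted p = 0.244). With plain totals that hold the 4 genes Epb41 was at -0.081 and Slc4a1 at -0.45. Cd47, a surface protein of many cells, was at 0.03 ± 0.42.

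The 4 adult globin mRNAs all had negative log2 fold changes, with a median of -0.76 against 0.17 over all genes tested. Of the 4, 1 was lower at an unadjusted p under 0.05, against 8.46% of all genes tested. That was Hbb-bt, with 217, 680 and 1623 CPM in MG and 727, 1654 and 3436 CPM in AG, at -1.26 ± 0.48 (SE, adjusted p = 0.244). Hba-a2 was at -0.80 ± 0.42, Hba-a1 at -0.72 ± 0.44 and Hbb-bs at -0.54 ± 0.47, the last at -0.19 without AG replicate 1, -0.35 without MG replicate 6 and -0.95 without MG replicate 4. Globin copies are nearly identical, so the split of reads between them is uncertain. Summed, the globins made up 0.767% to 8.5% of the reads outside the 4 genes in MG and 4.97% to 13.8% in AG, with overlap. With plain totals that hold the 4 genes, Hba-a1, Hba-a2 and Hbb-bs turned positive, at 0.34, 0.21 and 0.46, and Hbb-bt was at -0.18.

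**Figure D2:**
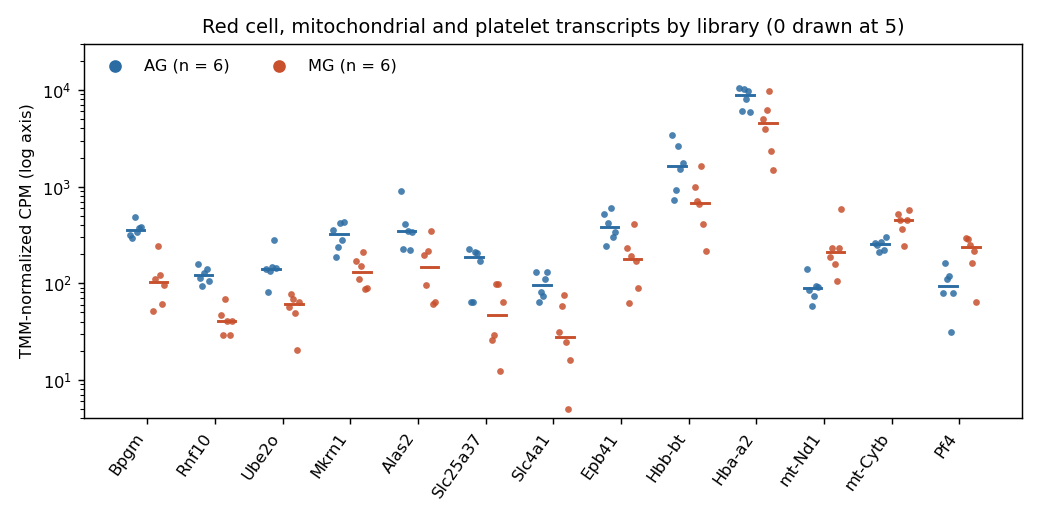
CPM after TMM scaling (vertical, log axis) in the 6 AG and 6 MG libraries for 10 red cell genes, mt-Nd1, mt-Cytb and Pf4, with points for libraries and bars for group medians. For Bpgm, Rnf10 and Ube2o every MG point lies below every AG point, while mt-Nd1, mt-Cytb and Pf4 have the higher median in MG.

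Genes outside the red cell lists were lower in MG as well. Ppp1cb, a catalytic subunit of protein phosphatase 1, had 80.2, 109 and 145 CPM in MG and 117, 271 and 463 CPM in AG, with a log2 fold change of -1.36 ± 0.38 (SE, adjusted p = 0.090). Pabpc1, the cytoplasmic poly(A)-binding protein, was at -1.20 ± 0.40, Grn, the growth factor progranulin, at -1.54 ± 0.47, Oaz1, which restrains polyamine synthesis, at -1.53 ± 0.50, Dcaf12, a substrate receptor of a ubiquitin ligase, at -1.56 ± 0.55 and Mcm7, a subunit of the replicative helicase whose introns hold a microRNA cluster, at -1.68 ± 0.57. Their adjusted p ranged from 0.106 to 0.195. The groups overlapped for all 6. With plain totals that hold the 4 genes Pabpc1 was at -0.12, Ppp1cb at -0.28, Grn at -0.47, Dcaf12 at -0.57, Oaz1 at -0.59 and Mcm7 at -0.92.

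The number of calls depended on single libraries. Without MG replicate 4, 10 of 261 genes passed the adjusted threshold, 9 of them lower in MG (3.45% of those tested): Polr2m, Rnf10, Bpgm, Mkrn1, Dcaf12, Oaz1, Mcm7, Trim39 and Fam46c, with mt-Nd1 higher. Without that library and without the 4 genes, 17 of 258 genes passed, 16 of them lower (6.2%), and 8 of the 17 were members of the red cell lists: Bpgm, Rnf10, Ube2o, Mkrn1, Alas2, Slc25a37, Epb41 and Hbb-bt. Without AG replicate 2 there were 5 calls, and without MG replicate 3 there were 3, all lower in MG and from the genes named above. With the 4 genes left out as well, these became 0 and 1 (Bpgm), while leaving out AG replicate 5 gave 3 (Rnf10, Bpgm and, higher, mt-Nd4l).

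The 1187 microRNA genes of the table were listed at a count of 0 in every library. For 62 of them a length-scaled value (RPKM, reads scaled by gene length and mapped reads) gave reads in the flight libraries, and 579 genes of any kind had such values above 0 at a count of 0. For 151 of these with enough signal, log2(RPKM + 1) was compared with limma, which gave 0 genes at an adjusted p under 0.05 (0%), 8 higher in MG (5.3%) and 13 lower (8.61%) at an unadjusted p under 0.05, and a median difference of 0.20. This scale was chosen after the data were seen and understates changes of low genes. Of 29 microRNA genes tested, 1 was higher, 4 were lower and the median was -0.30. After centring each library at the median of these genes, 8 were lower, against 15.9% of all 151, and the median was -0.48.

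Among the microRNA genes lower in MG were Mir144 and Mir451a, which lie 99 bases apart on chromosome 11 and are known as an erythroid pair, transcribed together and needed for red cell maturation. Their mature sequences are shown because the pair stands beside the red cell mRNAs above. They are given with Mirlet7i, also lower, its relatives with the same seed, and Mir30a. RefSeq held entries for 24 of the 29 tested genes (GRCm38.p6). Capitals mark the seed, bases 2 to 8.
mmu-miR-144-3p: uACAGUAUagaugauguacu
mmu-miR-144-5p: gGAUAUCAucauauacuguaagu
mmu-miR-451a: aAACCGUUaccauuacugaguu
mmu-let-7i-5p: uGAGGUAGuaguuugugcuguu
mmu-let-7a-5p: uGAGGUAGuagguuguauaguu
mmu-let-7b-5p: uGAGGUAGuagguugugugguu
mmu-let-7c-5p: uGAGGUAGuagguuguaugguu
mmu-miR-30a-5p: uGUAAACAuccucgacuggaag
The mature miR-144-3p spans chr11:78073047-78073066 and miR-451a spans chr11:78073186-78073207, both on the plus strand. The files give 1 value per gene and not per arm.

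Mir144 had RPKM values of 0, 2.37 and 6.19 (lowest, median, highest) in MG and 5.24, 22.9 and 47.7 in AG. These values stand for 0 to 4 reads per MG library and 1 to 17 per AG library, 47 reads in all. The difference of the mean log2 values was -2.95 ± 0.78 (SE, limma, adjusted p = 0.137), and 3 MG libraries had no read. Mir144 reached the RPKM minimum of 5 through AG, where all 6 libraries were above it, against 1 MG library, so that it could be tested only because it was high there. Mir451a, which passes through Argonaute 2 in place of Dicer, had 20 to 167 reads per MG library and 37 to 613 per AG library. Its RPKM was 68.6, 133 and 335 in MG and 74.9, 753 and 1576 in AG, a difference of -1.88 ± 0.70 (SE, adjusted p = 0.347). The RPKM lay above every MG library in 5 AG libraries, by little in replicate 5, and within the MG range in AG replicate 6.

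Mirlet7i had 127, 153 and 331 RPKM in MG and 85.8, 598 and 925 RPKM in AG, a difference of -1.30 ± 0.55 (SE, limma, adjusted p = 0.347), again with AG replicate 6 as the low AG library. Among the genes that share its seed, Mirlet7a-1 was at -0.93 ± 0.59, Mirlet7c-2 at -0.41 ± 0.49 and Mirlet7b at 0.03 ± 0.51, all with an unadjusted p above 0.05, and differences between these genes were not tested. Reads of let-7 relatives that differ by few bases can be assigned to either gene. Mir30a was at -0.96 ± 0.60, Mir182, on 69 reads, at -1.69 ± 0.79 and Mir5099, the microRNA gene that was higher, at 1.11 ± 0.53. For the other 16 microRNA genes with at least 30 reads the differences ran from -1.10 to 0.92, 11 of them negative, all with an unadjusted p above 0.05.

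Without AG replicate 6, Mir144 (-3.22), Mir451a (-2.44) and Mirlet7i (-1.78) each had an adjusted p of 0.045 (limma), with the same limit for Mir144. They were the only 3 of the 151 genes to pass in that fit. Without AG replicate 3, Mir144 was at -2.68, Mir451a at -1.57 and Mirlet7i at -1.09. Mirlet7i had an unadjusted p above 0.05 there, and also without AG replicate 1 or 2 or MG replicate 5. Mir182 was at -1.17 without MG replicate 2 or 6, with an unadjusted p above 0.05. In the edgeR fit with reads recovered from the RPKM values, Mir451a had a log2 fold change of -1.70 and Mirlet7i of -1.44, or -1.72 and -1.50 without the 4 genes, and Mir144 had too few reads to be tested. In the same fit Mir30a was at -1.12 and Mirlet7a-1 at -1.004, or -1.11 and -1.08 without the 4 genes, and of these only Mirlet7a-1 with the 4 genes had an unadjusted p above 0.05. None of these passed an adjusted p of 0.05.

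**Figure D3:**
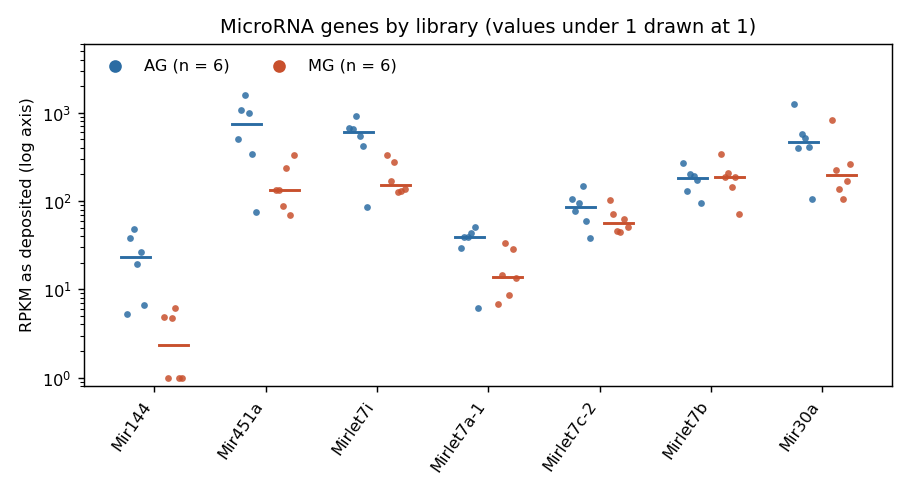
RPKM as deposited (vertical, log axis) of 7 microRNA genes in the 6 AG and 6 MG libraries, with points for libraries and bars for medians. Mir144, Mir451a and Mirlet7i have lower medians in MG, with the AG replicate 6 point near the MG points, and Mirlet7b has nearly equal medians.

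Genes that hold microRNAs in their transcripts were tested as mRNAs. Of 4 tested hosts 2 were lower, against 8.46% of all genes tested: Mcm7 and Vmp1, a membrane protein of autophagy whose gene overlaps Mir21a, and the median of the 4 was -0.97. Vmp1 had 1043, 1210 and 2531 CPM in MG and 1031, 2643 and 6105 CPM in AG, at -1.20 ± 0.47 (SE, edgeR, adjusted p = 0.244). Mir17hg, the host of a proliferation cluster, was at -0.73 and F630028O10Rik, the host of Mir223, at -0.48. The reads of a host and of its microRNA cannot be told apart where they overlap.

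The mitochondrial mRNAs had the opposite sign. All 13 had positive log2 fold changes (mt-Nd3 was at -0.22 in the exact permutation test on totals without the 4 genes, and mt-Atp6 at -0.063 without AG replicates 5 and 6), 4 were higher at an unadjusted p under 0.05, against 4.78% of all genes tested, and the median was 0.66 against 0.17. Leaving out 1 flight library gave 2 higher (without AG replicate 3 or MG replicate 1) to 7 (without MG replicate 4). Without the 4 dominant genes 3 were higher and the median was 0.58 against 0.08. With plain totals that hold the 4 genes 12 were higher, 10 of them past the adjusted threshold, and the median was 1.74 against 1.21, and with plain totals without them 1 was higher and the median was 0.56 against -0.01. Among the 7 subunits of complex I, the NADH dehydrogenase, mt-Nd1 had 105, 208 and 586 CPM in MG and 57.7, 88.6 and 140 CPM in AG, with a log2 fold change of 1.47 ± 0.44 (SE, adjusted p = 0.106). Its highest value came from MG replicate 6, and without that library it was at 1.03. mt-Nd4l had 91.2, 116 and 140 CPM in MG and 18.1, 36.8 and 141 CPM in AG, at 1.20 ± 0.44 (adjusted p = 0.217). The other 5, mt-Nd2, mt-Nd3, mt-Nd4, mt-Nd5 and mt-Nd6, lay between 0.50 and 0.96 with an unadjusted p above 0.05, and for mt-Nd4 it was 0.0575. mt-Nd2, the highest of them, was at 0.40 without MG replicate 6, and mt-Nd6 went from 0.59 to 0.099 without MG replicate 1.

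Of the 6 mRNAs of complexes III, IV and V, 2 were higher, against 4.78% of all genes tested, 1 without the 4 genes and 0 in the fit on genes with at least 5 reads. mt-Cytb, the core of complex III, had 243, 451 and 570 CPM in MG and 208, 255 and 300 CPM in AG, at 0.80 ± 0.33 (SE, adjusted p = 0.280), and 5 of 6 MG libraries lay above all AG libraries. mt-Co2, of cytochrome c oxidase, had 544, 869 and 1195 CPM in MG and 297, 578 and 691 CPM in AG, at 0.71 ± 0.33 (adjusted p = 0.343), and without the 4 genes it was at 0.63 with an unadjusted p of 0.077. mt-Co1, mt-Co3, mt-Atp6 and mt-Atp8 lay between 0.31 and 0.66. As a share of the reads outside the 4 genes the 13 mRNAs made up 1.16%, 2.89% and 5.02% (lowest, median, highest) in MG and 1.37%, 2.13% and 3.05% in AG, with overlap.

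The ribosomal RNAs of the mitochondrion pointed the same way with a wider spread. mt-Rnr1, the 12S rRNA, had 873, 4100 and 7453 RPKM in MG and 285, 2577 and 5370 RPKM in AG, and the difference of the mean log2(RPKM + 1) was 1.17 (p = 0.223, two-sided exact permutation test). mt-Rnr2, the 16S rRNA, differed by 0.96 (p = 0.253, two-sided exact permutation test). Leaving out 1 library moved these to between 0.69 and 1.56 and between 0.51 and 1.31, and with recovered reads the log2 fold changes were 0.62 for mt-Rnr1 and 0.53 for mt-Rnr2. The smallest p that this exact permutation test can give here is 0.00216. Of 16 mitochondrial tRNAs 15 had a positive difference and 1, mt-Ta, was higher at an unadjusted p under 0.05, with a median of 0.67 against 0.20 and 5.3% higher over the zero-count genes. With recovered reads 0 of 11 were higher, with a median of 0.41, and mt-Ta was at 0.80, and without the 4 genes 0 of 9 were higher, with a median of 0.29. Nuclear genes of oxidative phosphorylation were too low for the main test. Of 53 with at least 5 reads, 3 were higher and 0 were lower, with a median of 0.18 against 0.34 over all genes with as many reads and 9.87% of those higher.

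**Figure D4:**
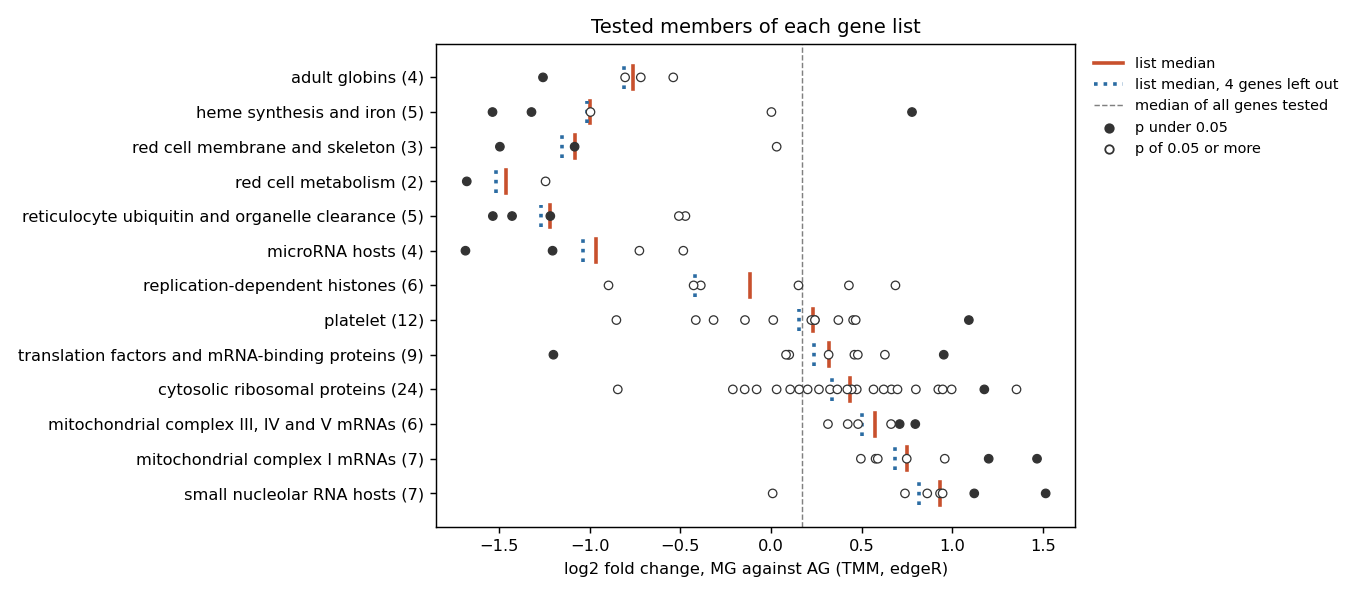
Log2 fold change, MG against AG (horizontal), of each tested member of 13 gene lists, with the number tested in brackets, filled where the unadjusted p was under 0.05. Solid bars are list medians with the 4 dominant genes in the library total, dotted bars without them, and the dashed line is the median of all 272 genes at 0.17. The red cell lists have medians from -1.46 to -0.76 and both mitochondrial lists lie above the dashed line. Few members were tested in some lists, 2 for red cell metabolism.

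Hosts of small nucleolar RNAs (snoRNAs) were higher by the median, which depended in part on 1 library. snoRNAs guide chemical marks on ribosomal RNA and are cut from the introns of these genes. The 7 tested hosts had positive log2 fold changes with a median of 0.93, and 2, Gas5 and Snhg5, were higher at an unadjusted p under 0.05, against 4.78% of all genes tested. Without the 4 genes 2 were higher and the median was 0.82, with plain totals that hold them 7 were higher and 6 passed the adjusted threshold, and with plain totals without them 0 were higher and the median was 0.50. Gas5 had 6254, 8536 and 88849 CPM in MG and 4423, 7554 and 12226 CPM in AG, at 1.51 ± 0.63 (SE, edgeR, adjusted p = 0.280). The top value was MG replicate 6, and without it Gas5 was at 0.14. Snhg5 had 5911, 10494 and 31117 CPM in MG and 3645, 6256 and 10885 CPM in AG, at 1.12 ± 0.49, and at 0.77 without MG replicate 6, when 0 of the 7 hosts were higher and their median was 0.40 against 0.17 over all genes. Without AG replicate 1, too, 0 were higher, with a median of 0.80. Together the hosts made up 48.1% of the reads outside the 4 genes in MG replicate 6, 12.04% to 28.2% in the other MG libraries and 8.44% to 23.9% in AG.

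1110038B12Rik, a noncoding host, and Tlcd1, a membrane lipid protein gene, behaved likewise, at 1.58 ± 0.66 and 1.53 ± 0.67, and at 0.25 and 0.43 without MG replicate 6. Of the snoRNAs and Cajal body RNAs themselves, 6 were tested by RPKM, all 6 were positive and 2 were higher, against 5.3% of the zero-count genes. Snora17 was at 1.65 ± 0.67 and Snord13 at 1.82 ± 0.77, with adjusted p of 0.347 (limma). Snord13 reached the RPKM minimum only with the GC libraries counted in. Snora17 had an unadjusted p above 0.05 without AG replicate 6 (1.14) or MG replicate 5 (1.43), and Snord13 without any of AG replicates 1, 4 and 5 and MG replicates 1, 2 and 6, with the lowest value, 1.40, without MG replicate 6. With recovered reads 4 of 5 were higher, against 9.38% of the zero-count genes in that fit. MG replicate 6 held 1197 of the 2131 flight reads of Snord118, 278 of 420 of Scarna17 and 212 of 552 of Snord104, which were 3 of the 4.

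**Figure D5:**
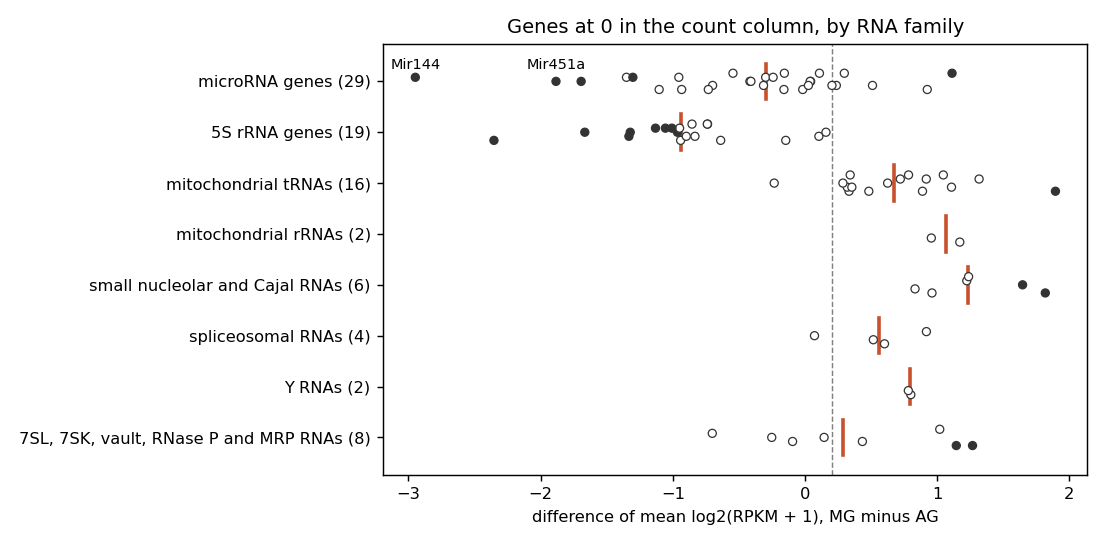
Difference of the mean log2(RPKM + 1), MG minus AG (horizontal), of the genes at 0 in the count column, by RNA family with the number tested in brackets, filled where the unadjusted p was under 0.05. Bars are family medians and the dashed line is the median of all 151 genes at 0.20. The 5S rRNA genes lie mostly below 0, with a median of -0.94, and Mir144 has the lowest value.

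The 5S ribosomal RNA genes, copies of a small RNA of the large ribosomal subunit, were lower in part. Of 19 tested, 8 were lower and 0 were higher, against 8.61% and 5.3% of the zero-count genes, with a median difference of -0.94 and a range from -2.35 to 0.16. n-R5s193 had 284, 458 and 1491 RPKM in MG and 577, 5099 and 7591 RPKM in AG, at -2.35 ± 0.77 (SE, adjusted p = 0.347), with AG replicates 2 and 3 within the MG range. n-R5s2 had 558, 1585 and 2284 RPKM in MG and 1559, 3256 and 4154 RPKM in AG, at -1.13 ± 0.46. The copies are close in sequence and share reads, so they are not independent of each other. With the recovered reads, 6 of 13 copies tested were lower, with or without the 4 dominant genes, against 13.5% and 15.1% of the zero-count genes in those fits. By contrast, Rpph1, the RNA of ribonuclease P, was higher at 1.14 ± 0.53, but at 0.75 with recovered reads and 0.77 without the 4 genes, with an unadjusted p above 0.05 in both, and the Y RNAs Rny1 and Rny3 were at 0.80 ± 0.65 and 0.78 ± 0.66.

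Few cytosolic ribosomal protein mRNAs passed the test. Of 24 tested, 20 had positive values, 1, Rpl37a, was higher at 1.18 ± 0.53 (SE, edgeR, adjusted p = 0.333), against 4.78% of all genes tested. Rpl37a reached the read minimum through MG, and without MG replicate 1 or 2 it had too few reads to be tested. The median was 0.43 against 0.17 over all genes, or 0.33 against 0.08 without the 4 genes, when 0 were higher. Among 9 translation factors and mRNA-binding proteins, Eif4a2, an RNA helicase of initiation whose introns hold snoRNAs, was higher at 0.95 ± 0.44. Pabpc1 was lower, and the median was 0.32. Over all genes tested 4.78% were higher and 8.46% lower. Eif4a2 was at 0.68 without MG replicate 6, with an unadjusted p above 0.05. The same held for its p without any of AG replicates 1, 3, 4 and 5 and MG replicates 2 and 5. For the 6 histone genes the median was -0.12 with 0 on either side. Without the 4 genes 7 were tested, with a median of -0.42 and again 0 on either side.

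Platelet markers were detected throughout but differed by library. All 17 listed genes had reads, 12 were tested, 1 was higher, against 4.78% of all genes tested, and the median was 0.23 against 0.17. Pf4, platelet factor 4, had 64.2, 234 and 291 CPM in MG and 31.3, 94.2 and 163 CPM in AG, with a log2 fold change of 1.09 ± 0.43 (SE, adjusted p = 0.247). Ppbp, the most abundant platelet chemokine mRNA here, had 794, 1770 and 2230 CPM in MG and 203, 1442 and 1928 CPM in AG, at 0.45 ± 0.45. The platelet list held 0.236% of the reads outside the 4 genes in AG replicate 5, 0.463% in AG replicate 6 and 0.458% in MG replicate 6, against 1.21% to 2.81% in the other flight libraries. The part of this in the results above was not tested. Without AG replicates 5 and 6, 10 of 20 red cell genes were lower, with a median of -1.04, and 3 of 13 mitochondrial mRNAs were higher, with a median of 0.75. Of all 305 genes tested then, 24 were lower and 15 were higher, with a median of -0.03. The platelet list itself had a median of -0.21 without these libraries, with 2 genes lower and 0 higher. Without MG replicates 4 and 6 as well, its median was 0.02, with 1 lower and 1 higher. Of all 284 genes tested in that last fit, 26 were lower and 9 were higher, with a median of 0.03. Red cell genes were scarcest in MG replicate 6, at 1.46% of the reads outside the 4 genes. Without it 9 of 19 were lower, with a median of -0.94, against 24 of 271 genes tested and 0.17. The count was lowest without AG replicate 1, when 6 of 16 were lower and 1 was higher, with a median of -0.83. Of the 271 genes tested then, 16 were lower and 11 were higher, with a median of 0.26. In that fit Alas2 was at -0.93 and Hbb-bt at -0.98, both with an unadjusted p above 0.05.

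Markers of other cells were scarce. Of the neutrophil and monocyte list 2 genes were tested, Lyz2 at 0.08 ± 0.34 and Fcer1g at -0.11 ± 0.56, while 2 of 11 with at least 5 reads were higher, against 9.87% of all such genes, with a median of 0.76 against 0.34. Of the lymphocyte list, 0 genes reached the test, and the list made up 0.0419% to 0.0655% of the reads outside the 4 genes in MG and 0.0173% to 0.128% in AG. The liver list made up 1.79% of the reads outside the 4 genes in AG replicate 6 and 1.47% in MG replicate 6, against 0.0191% to 0.304% in the other flight libraries, and of its 22 genes with at least 5 reads 4 were higher, with a median of 0.73, against 9.87% and 0.34 over all such genes. Alb, albumin, had 0, 120 and 2359 CPM in MG and 0, 37.7 and 1514 CPM in AG, where the highest values were MG replicate 6 and AG replicate 6, and it was at 0.83 ± 1.16. Gpx3, a plasma glutathione peroxidase made mainly in the kidney, was higher at 1.79 ± 0.82 (SE, edgeR, adjusted p = 0.333), with 16.05 to 223 CPM in MG and 0 to 104 CPM in AG, at 2.96 without AG replicate 6 and at 1.44 without AG replicate 3. It reached the read minimum through MG, and without any of MG replicates 1, 3, 4 and 5 it had too few reads to be tested. Of skeletal muscle genes only Ttn, the giant spring of the sarcomere, could be tested, at 0.43, and of 13 with at least 5 reads 2 were higher and 2 lower, against 9.87% and 3.21% of all such genes, with a median of -0.32 against 0.34. Collagen Col1a1 was at -0.10 ± 0.61 and Col1a2 at 0.97 ± 0.67, both with an unadjusted p above 0.05.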

How the data were processed

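Plasma cfRNA of 12 flight mice was analysed (6 MG, 6 AG), with 5 GC libraries in the filter, the scaling and the fit for the spread. With the flight libraries alone 183 genes were tested in place of 272. The authors mapped reads to mm10 in CLC Genomics Workbench against 49585 genes. The deposited counts are whole reads per gene, not normalized, and the deposited RPKM values are scaled by gene length and mapped reads, by the authors. TPM was not used. Counting on strand is not given in the sources used here.

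Counts were filtered with filterByExpr, scaled by TMM and tested with the quasi-likelihood test of edgeR 4.0.16 on all 17 libraries in R 4.3.3, with Benjamini-Hochberg adjustment and a threshold of 0.05. DESeq2 1.42.0 and the edgeR exact test were alternatives. The study's criterion was an unadjusted p under 0.05 with a change over 1.5-fold. Genes at 0 in the count column, with RPKM of at least 5 in at least 5 libraries, were tested with limma 3.58.1 on log2(RPKM + 1). Reads were recovered from RPKM, gene length and the mapped reads per library that the RPKM values imply, not from the summed counts. The scripts were tested on simulated data.

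Named genes were the 12 lowest p in each direction, the 4 dominant genes, tested members of the red cell and mitochondrial lists, calls among genes with at least 5 reads, up to 3 abundant members of a described list, and microRNA genes with at least 30 reads. Others were named after their values were seen. The comparison, members and lists were chosen with earlier results of these data known. Sequences are from RefSeq and coordinates from GENCODE (GRCm38). P-values measure the spread between single mice.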

Additional observations from a re-analysis of the deposited data

Results flagged for a closer look

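Of 82 groups of 6 libraries tested, 12 held a library far from the others by Dixon's test, where chance gives about 1 in 20, or 4.1, and 5 of the 12 were MG replicate 6. In MG replicate 6, Gas5 was at 88849 CPM, 1110038B12Rik at 4453 CPM, Tlcd1 at 2897 CPM and mt-Nd1 at 586 CPM, and the liver list held 1.47% of the reads outside the 4 genes. In AG replicate 6 the liver list held 1.79% and Gpx3 was at 104 CPM. In AG replicate 5, Ube2o was at 281 CPM and mt-Nd4l at 141 CPM. Bpgm stood at 243 CPM in MG replicate 3, Gpx3 at 223 CPM in MG replicate 1 and Mir30a at 832 RPKM in MG replicate 1.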

How the results depend on the processing

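The adjusted threshold of 0.05, passed by 0 genes, was passed by 48 with plain totals that hold the 4 dominant genes, 9 with DESeq2, 6 among genes with at least 5 reads (5 with the 4 genes out), 3 with the edgeR exact test and 1 each with the flight libraries alone (Polr2m) and without AG replicates 5 and 6 and MG replicates 4 and 6 (Mcm7). Leaving out 1 library gave 0 to 10, the highest without MG replicate 4. Genes past the study's criterion, 36, became 120 with those plain totals, 819 and 846 among genes with at least 5 reads, 17 with limma on RPKM, and 64 and 62 with recovered reads. Genes without overlap, 5 lower, became 9 higher and 0 lower with those totals, 4 lower with TMM without the 4 genes, 3 lower with totals without the 4 genes (Mkrn1, Hnrnpl and Ube2o, of which Ube2o was among the 5), and 0 with RPKM.

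With plain totals that hold the 4 genes, direction turned for Lars2 (0.57), Rn18s-rs5 (0.073), Hba-a1 (0.34), Hba-a2 (0.21), Hbb-bs (0.46), Ubb (0.52) and Bnip3l (0.58), and with limma on RPKM for Lars2 (0.044) and Ubb (0.015). Without the 4 genes, Ftl1 was at -0.052 by TMM, -0.12 by totals and -0.18 in the permutation test, and Cd47 at -0.035, -0.15 and -0.13. Ftl1 was at -4.5e-05 and Cd47 at -0.038 with a minimum count of 5, and Ftl1 at -0.0069 with the flight libraries alone. Cd47 was at -0.21 and mt-Atp6 at -0.063 without AG replicates 5 and 6, and at -0.11 and -0.029 without MG replicates 4 and 6 too. mt-Nd3 was at -0.22 in the permutation test. Leaving out 1 library gave -0.10 to 0.20 for Ftl1, -0.15 to 0.21 for Cd47 and -0.17 to 0.27 for Mirlet7b, which was at -0.16 after centring and without AG replicates 5 and 6, and at -0.011 and -0.11 with recovered reads. Zero-count genes with an unadjusted p under 0.05, 21 in all, became 33 after centring, 33 without a filter and 9 to 35 without 1 library, when 0 to 3 passed the adjusted threshold. The cause was not tested.

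With the replicate number as a block, 3 genes passed (Tmem38b, Bpgm and Polr2m). Same-numbered libraries correlated at -0.0884 to 0.459, over 0.1 in 4 of 6 pairs and not in every pair, and 3 AG libraries correlated best with their own number. The labels give no shared source for a number, so whether same-numbered mice were paired cannot be told. Over 50 named genes, 1544 of 1637 other values kept direction and side of the threshold, 57 newly passed it and 36 changed direction. The alternatives on zero-count genes and on sets of libraries were chosen after seeing the data. Depth outside the 4 genes limits what could be detected.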

Other observations

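Of the genes called among those with at least 5 reads, 4 rested almost wholly on 1 flight library. MG replicate 4 had 94 reads of Gm14744, 65 of 5430402E10Rik, 56 of Mup4 and 44 of Obp1b, against 0, 0, 1 and 0 in the other 11 flight libraries together. These 4 genes passed an adjusted p of 0.05 among the 6270 genes with at least 5 reads (0.0957% of which passed in all), with that library holding all but 1 of their reads. Mup4 and Obp1b encode lipocalins, secreted carriers of odorants and pheromones. Of 2 relatives looked at after the calls were seen, Obp1a had 29 reads there and 3 in the other flight libraries, and Obp2a 17 and 0.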
